A study of Mus musculus with 4 samples.

Results

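The Serpin family was examined in nuclei of mouse liver: every gene of the deposited tables whose symbol begins with Serpin, pseudogene symbols left out. Of 32285 features, 62 were Serpin genes, and 32 of these held at least 50 unique molecular identifiers (UMIs, each a captured transcript) over the 4 libraries. The last gene inside that limit was Serpina3f with 67 UMIs and the first outside it was Serpinb7 with 45. The other 30 genes, 5 of them with no UMI, are not described.

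Single nuclei came from non-tumor liver of male mice 12 months old, each given 25 mg/kg of the liver carcinogen diethylnitrosamine (DEN) when 14 days old. The groups were Brca1-WT and Brca1-KO with 2 libraries each, all from DEN-exposed animals, so no unexposed liver is among them. By the labels the replicates are biological, the kit is a 3′ v1 kit of 10x Genomics and the molecule is genomic DNA, although the values count transcripts. The sources used here name no Cre line, promoter or deleted exon. P-values by genotype measure the spread between these 4 libraries. Those by liver zone measure how much the difference between zones varied from library to library. Below, 4 values in a row are Brca1-WT replicates 1 and 2, then the libraries labelled Brca1-KO replicates 1 and 2, called the first and the second library labelled Brca1-KO.

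Serpins are proteins of a shared fold. Most trap a serine protease by presenting a bait loop that the protease cuts, after which both proteins are locked together. The liver secretes many of them into plasma, where they hold back clotting, plasmin, complement and neutrophil proteases. Others carry hormones, assist collagen folding, or stay inside cells.

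The libraries held 36662067 to 45638888 UMIs in 5209 to 7833 barcodes, and 4799 to 6965 nuclei were kept in each. Pairs of libraries shared 9 to 20 barcodes, at most 0.292% of the smaller library. Brca1, the targeted gene, stood at 13.3, 12.1, 18.6 and 5.78 CPM (UMIs scaled to a common library total) in hepatocyte-like nuclei, so 1 library labelled Brca1-KO was the highest and the other the lowest (exact permutation p = 1). The kit reads transcript ends, and the sources used here do not name the deleted exons. Of 7 hepatocyte-like clusters, numbers 3, 4 and 12 held 97.2% of the hepatocyte-like nuclei of the second library labelled Brca1-KO, against 2.23%, 2.27% and 0.349% in the others. That library therefore stood apart, and the larger genotype differences that rest on it are given with and without it. Hepatocyte-like nuclei expressed all 12 hepatocyte markers in every library, while the 12 endothelial markers summed to 24.7 to 69.6 CPM there against 11597 to 19280 CPM in endothelial-like nuclei. Hepatocyte markers were not confined to hepatocyte-like nuclei, where they summed to 17148 to 23002 CPM. Their sum was 14041 to 21185 CPM in neutrophil-like, 9029 to 10732 in B cell-like, 4550 to 8357 in endothelial-like and 3467 to 4607 in stellate or mesenchymal-like nuclei.

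Of the 32 genes, 16 lie on chromosome 12 by RefSeq gene order. Serpina1b, Serpina1d, Serpina1a, Serpina1c and Serpina1e follow one another there, as do Serpina3k, Serpina3m and Serpina3n. The promoters of the Serpina1 genes are shown because these near copies differed in level although their promoter sequences are close. Each line gives the 150 bases before the annotated start in RefSeq (build GRCm38.p6), 5′ to 3′, with GTTAAT in capitals.
Serpina1a (chr12:103863620-103863769, minus strand): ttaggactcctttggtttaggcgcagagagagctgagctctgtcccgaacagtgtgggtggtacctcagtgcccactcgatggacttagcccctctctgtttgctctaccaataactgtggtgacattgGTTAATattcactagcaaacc
Serpina1b (chr12:103738190-103738339, minus strand): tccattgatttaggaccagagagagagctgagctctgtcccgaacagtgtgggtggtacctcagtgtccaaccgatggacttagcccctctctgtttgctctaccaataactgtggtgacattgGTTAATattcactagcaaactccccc
Serpina1c (chr12:103904951-103905100, minus strand): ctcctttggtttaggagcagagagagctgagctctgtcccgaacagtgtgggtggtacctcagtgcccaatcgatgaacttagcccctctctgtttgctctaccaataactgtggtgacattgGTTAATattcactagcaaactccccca
Serpina1d (chr12:103773634-103773783, minus strand): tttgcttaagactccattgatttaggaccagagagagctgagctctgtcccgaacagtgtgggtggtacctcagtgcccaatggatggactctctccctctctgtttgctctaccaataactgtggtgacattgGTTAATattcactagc
Serpina1e (chr12:103956898-103957047, minus strand): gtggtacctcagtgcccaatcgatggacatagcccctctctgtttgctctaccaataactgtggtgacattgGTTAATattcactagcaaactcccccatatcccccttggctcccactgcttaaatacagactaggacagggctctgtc
GTTAAT, part of the textbook binding site of the liver factor HNF1, was searched on both strands, with ATTAAC as its reverse complement. It was present in all 5 stretches, and in 6 of the 25 members that had a promoter entry, the sixth being Serpina7. Of 27025 promoters of the same length, 3.76% held it. The 5 Serpina1 promoters are near copies, so they are not separate cases. The first base of GTTAAT lay at position −21 of Serpina1a, −26 of Serpina1b, −27 of Serpina1c, −16 of Serpina1d and −78 of Serpina1e, counted from the annotated start. Identity between the promoters of pairs was taken over longer stretches than those printed, with 187 to 248 aligned bases. It was 92.05% (Serpina1c and Serpina1d) to 97.98% (Serpina1b and Serpina1e) over the part that aligned. Other motifs were also searched in the 25 members. TTCNNNGAA, with N for any base, was in 5 members (4.17% of all promoters) and TATAAA in 1 (8.08%). TTGCGCAA and CAAAGTCCA were in 0 members (0.122% and 0.274% of all promoters). A match describes letters only and does not show binding.

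The counts of the Serpina1 genes may be split between copies. In the last 500 bases of each transcript in GENCODE vM21, the share of 60-base windows found in no other gene was 56.5% for Serpina1a, 67.3% for Serpina1c and 69.2% for Serpina1d. It was 79.1% for Serpina1b and 93.2% for Serpina1e. For 26 of the 32 members every window was unique, and for Serpina3g 99.8% were. The sources used here do not say whether shared reads were dropped in counting, so levels of the Serpina1 copies, Serpina1e least, are uncertain.

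Hepatocyte-like nuclei held 92.6% of all member UMIs, from 89.1% to 94.5% by library, and 19 members had over 90% of their UMIs there. The members Serpina3k, Serpinc1 and Serpina1b made up 49.1% of the hepatocyte total. All members together took 0.286%, 0.333%, 0.322% and 0.222% of hepatocyte UMIs, so the second library labelled Brca1-KO was lowest and the groups overlapped (exact permutation p = 0.667). With 2 libraries against 2, this test cannot give a p below 0.33.

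Free RNA from broken hepatocytes can enter droplets, so a liver transcript in another cell class is not by itself expression. For each library, the CPM of a gene in a class was divided by its CPM in hepatocyte-like nuclei and set beside the same ratio for 20 abundant hepatocyte genes, among them Alb and Apob. In endothelial-like nuclei these reference ratios ran from 0.124 to 1.34, 0.116 to 0.785, 0.116 to 0.875 and 0.318 to 1.69 in the 4 libraries. Of the 19 members with at least 50 UMIs in hepatocyte-like nuclei of every library, 17, 17, 17 and 16 lay at or under the highest reference ratio. The UMIs of those members in endothelial-like nuclei could not be told apart from free RNA.

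**Figure D1:**
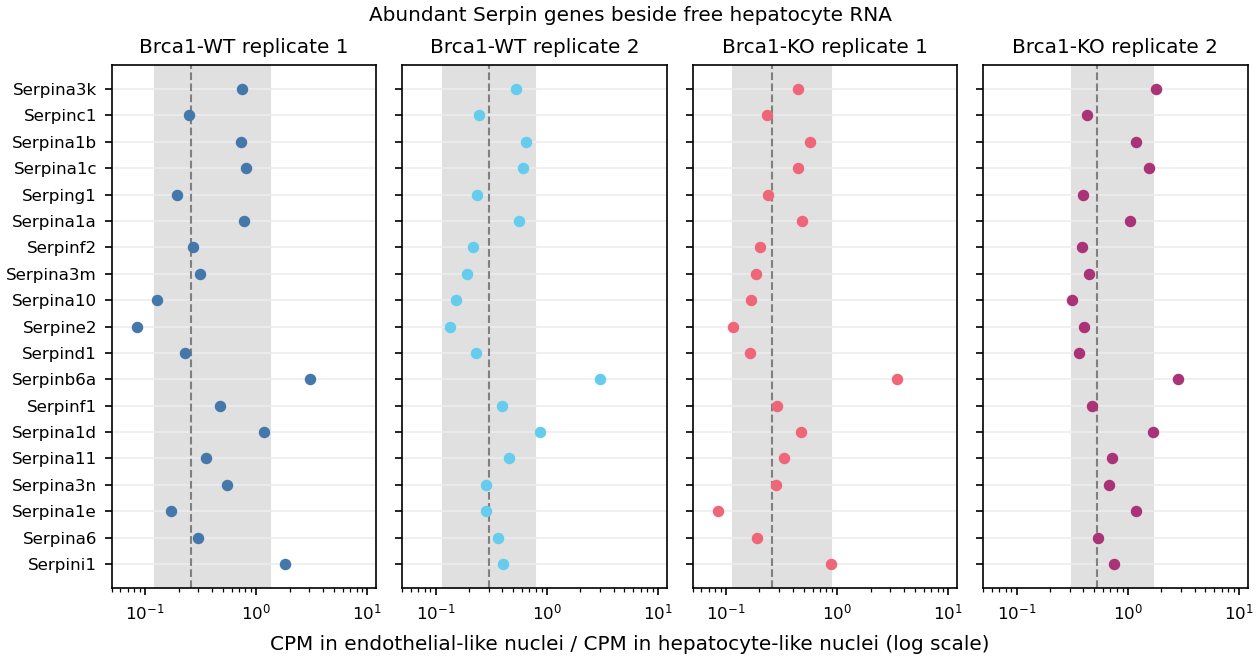
CPM in endothelial-like nuclei divided by CPM in hepatocyte-like nuclei (log scale) for the 19 abundant members, 1 panel for each library; grey bands span the 20 reference genes and dashed lines mark their median. Serpinb6a lies right of the band in all 4 panels, at 2.82 to 3.42, while Serpinc1 lies inside it at 0.232 to 0.434.

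The members still differed in position. Serpine2, protease nexin-1, had the low ratios 0.0847, 0.135, 0.114 and 0.405 in endothelial-like nuclei, under the lowest reference gene in 2 libraries. Serpina1b, an alpha-1 antitrypsin gene, had 0.736, 0.651, 0.570 and 1.19. The order of the pair was the same in 4 of 4 libraries. The pair was not fixed before these ratios were taken, so this is no separate support. What sets a gene's place among the reference genes was not tested.

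In all, 12 members exceeded every reference gene in at least 3 of 4 libraries in at least 1 class with 20 or more UMIs, and 11 of them are described by class in plain CPM. The rule was not applied to all genes, so whether this count is high cannot be told. Serpinb6a, an intracellular inhibitor of cathepsin G, exceeded the reference in the most classes, 6. It stood at 126, 144, 133 and 91.5 CPM in endothelial-like nuclei and at 131, 138, 160.4 and 103 CPM in macrophage-like nuclei. In hepatocyte-like nuclei it had 41.5, 47.3, 38.8 and 32.4 CPM, below both classes in every library. T or NK cell-like nuclei had 115, 106, 88.7 and 48.2 CPM, and B cell-like nuclei 82.2, 145, 90.4 and 43.8 CPM. Stellate or mesenchymal-like nuclei had 73.6, 65.4, 66.2 and 35.9 CPM, and monocyte or dendritic-like nuclei 36.9, 81.2, 65.1 and 42.7 CPM. The second library labelled Brca1-KO was lowest in all of these classes but the last.

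Serpini1, neuroserpin, an inhibitor of tissue plasminogen activator first described in neurons, was highest in B cell-like nuclei. It had 32.2, 63.2, 97.4 and 48.7 CPM there, against 1.74, 3.04, 2.97 and 2.81 CPM in hepatocyte-like nuclei. T or NK cell-like nuclei had 26.2, 16.7, 27.3 and 17.2 CPM. Stellate or mesenchymal-like nuclei had 19.7, 18.9, 9.24 and 33.1 CPM. These levels rest on 43, 29 and 81 UMIs in all, and each class lay above hepatocyte-like nuclei in 4 of 4 libraries.

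Serpinb1a, an intracellular inhibitor of neutrophil elastase, had 58.7% of its 75 UMIs in B cell-like nuclei. The level there was 75.0, 69.5, 27.8 and 39.0 CPM, against 0.103, 0.203, 0.137 and 0.180 CPM in hepatocyte-like nuclei. Both Brca1-WT libraries lay above both libraries labelled Brca1-KO, on 21, 11, 4 and 8 UMIs. Serpinb8, which inhibits furin in vitro, was above the reference in macrophage-like nuclei at 4.14, 40.3, 15.9 and 15.5 CPM. Brca1-WT replicate 1 was lowest and replicate 2 highest, so the spread within that genotype covered both libraries of the other.

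Stromal members were sparse. Serpinh1, the collagen chaperone HSP47 of the endoplasmic reticulum, had 4.15, 10.4, 13.9 and 16.6 CPM in stellate or mesenchymal-like nuclei. In endothelial-like nuclei Serpinh1 had 6.90, 2.06, 4.21 and 7.44 CPM, while hepatocyte-like nuclei held 7 UMIs of it in all.

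Serpina3i, Serpina3f and Serpina3g, members of the antichymotrypsin cluster, had most of their UMIs, or the largest share, in endothelial-like nuclei, unlike Serpina3k, Serpina3m and Serpina3n. Serpina3i had 85.7% of its 63 UMIs in endothelial-like nuclei, at 7.85, 4.12, 6.84 and 6.38 CPM, and 3 UMIs in hepatocyte-like nuclei. Serpina3f had 2.82, 4.94, 2.10 and 4.25 CPM in endothelial-like nuclei. Serpina3g had 3.14, 1.24, 3.68 and 18.1 CPM there, the last from the second library labelled Brca1-KO. In T or NK cell-like nuclei Serpina3g had 0, 8.36, 13.6 and 17.2 CPM on 12 UMIs and Serpina3f 0, 5.58, 3.41 and 13.8 CPM on 7 UMIs, a higher mean level than in endothelial-like nuclei for both.

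The intracellular genes Serpinb9 and Serpinb6b were also above the reference in endothelial-like nuclei. Serpinb9, the inhibitor of granzyme B that protects cells from their own cytotoxic granules, had 5.65, 7.0, 2.63 and 2.13 CPM in endothelial-like nuclei. Both Brca1-WT libraries were above both libraries labelled Brca1-KO, on 18, 17, 5 and 2 UMIs. Serpinb6b had 2.51, 4.12, 1.58 and 2.13 CPM there on 23 UMIs. Among the named classes, T or NK cell-like nuclei had the highest mean level of both. Serpinb9 had 23.6, 13.9, 3.41 and 6.88 CPM there on 17 UMIs and Serpinb6b 21.0, 5.58, 6.82 and 10.3 CPM on 15 UMIs. An unnamed cluster led by Vwf had 20.3, 49.8, 22.8 and 61.3 CPM of Serpinb9 on 12 UMIs. Serpina1c was above the reference in neutrophil-like nuclei in 3 of 4 libraries, in a class of 12 to 32 nuclei a library where the highest reference ratio was 1.39 to 1.88.

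**Figure D2:**
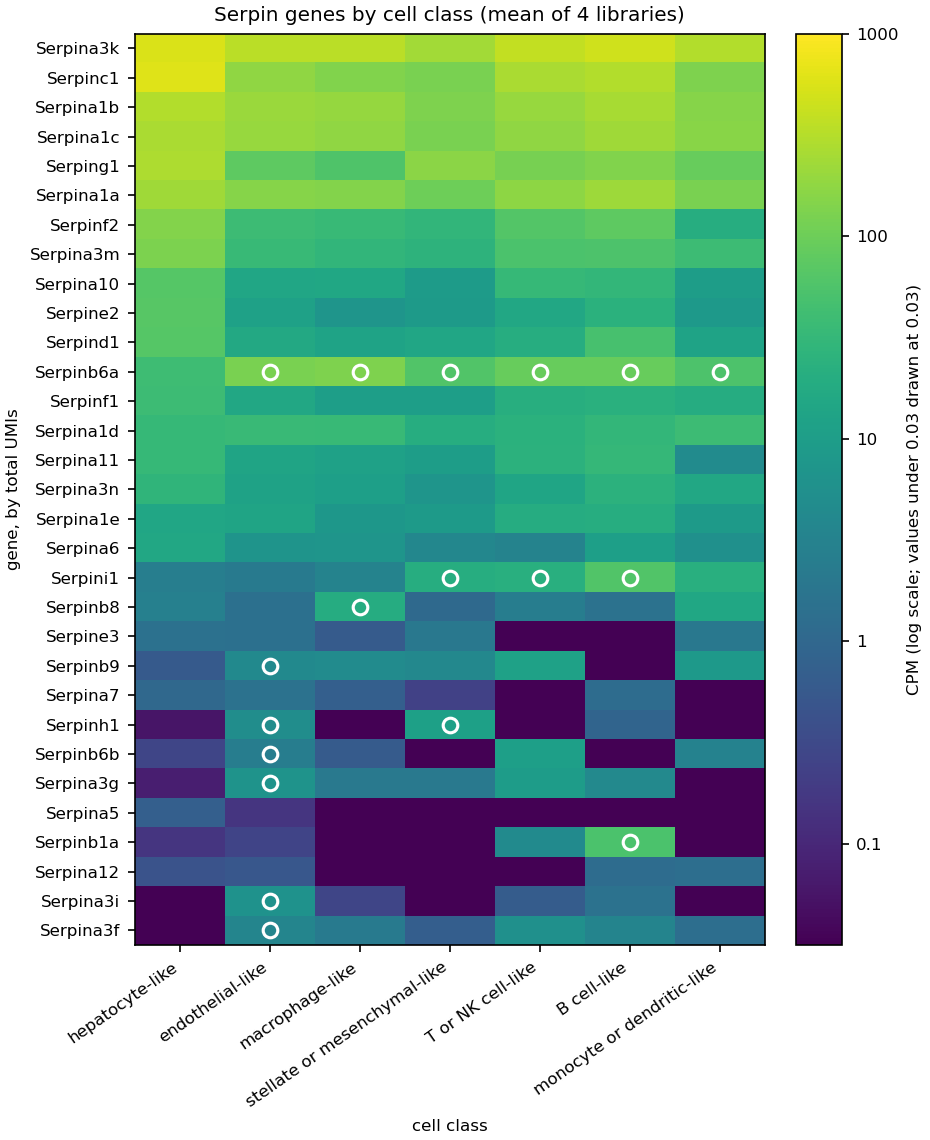
Mean CPM over 4 libraries (log colour scale) of 31 of the 32 members in the 7 classes with at least 30 nuclei in every library; white circles mark a level above all 20 free RNA reference genes in at least 3 libraries. The hepatocyte column is the brightest for 16 members, among them Serpinc1 and Serpina3k, but not for the plasma serpins Serpina1d, Serpina1e, Serpina7 and Serpina12, which carry no circle. Serpinb6a is circled in all 6 other columns and Serpina3i in the endothelial column alone.

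Hepatocytes near the portal vein (periportal) and near the central vein (pericentral) divide the liver's work. Hepatocyte-like nuclei of each library were ranked by zone marker genes, without any Serpin, and divided into 3 equal parts, of which the lowest and the highest scoring, with 858 to 1364 nuclei each, were compared. These are ranges of a score and not cell types. In each library 96 to 360 hepatocyte-like nuclei, counted on both sides, lay within 0.1 SD of the bound of a range. In edgeR's quasi-likelihood test with library as a block, 16 of 23 tested members passed an adjusted p of 0.05, or 69.6%, against 26.4% of all 13353 genes tested. Of these, 14 were higher periportally, against 13.6% of all genes, and 2 pericentrally, against 12.8%. Among 19 tested free RNA reference genes, likewise abundant in hepatocytes, 12 were called higher periportally and 3 pericentrally. Members were not compared with genes of matched level, so the shares do not show a trait particular to the family. Serpina1e, Serpinb8 and Serpina6, 3 members, passed and differed at least 2-fold, as did 5.98% of genes. All 16 had their direction in 4 of 4 libraries. They were picked by a test on these same libraries, so this is no separate support. Of all genes tested, called or not, 43.4% had the same direction in 4 of 4 libraries. The median log2 fold change of tested members was 0.37, against 0.01 for all genes tested. Median UMIs per nucleus were higher in the pericentral range of every library, most so in the second library labelled Brca1-KO (8753.5 against 6748), so each nucleus was also thinned to 1000 UMIs. Then 11 of 18 tested members passed, all in the same direction as before, against 16.4% of all genes in that fit. Serpina10, Serpina3n and Serpinf1 did not pass, with log2 fold changes of 0.35, 0.36 and 0.35 against 0.37, 0.34 and 0.40 unthinned. DESeq2 called 14 members and 9.69% of genes, and lost Serpinb8 (adjusted p = 0.12), Serpini1 (0.29) and Serpina3n (0.058). With narrower outer ranges of the score, from 4 equal parts, 14 of 23 members and 27.1% of genes passed, and Serpina1e (1.60, adjusted p = 0.067) and Serpina6 (−1.15, 0.098) did not. Without a low count filter Serpina1e (adjusted p = 0.088) and Serpini1 (0.054) did not pass.

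All 5 Serpina1 genes were higher in the periportal range. Serpina1e rose from 2.70, 3.39, 4.87 and 18.9 pericentrally to 8.35, 4.46, 7.38 and 79.9 normalised CPM periportally. Its log2 fold change was 1.52 (standard error 0.35, edgeR adjusted p = 0.039), the largest among members, and its size differed between libraries from 0.40 to 2.08. Without the second library labelled Brca1-KO it was 0.87 (adjusted p = 0.018), and without Brca1-WT replicate 1 it was 1.55 and no longer passed (adjusted p = 0.10). Serpina1d rose from 16.9, 29.5, 19.1 and 31.4 to 32.4, 50.6, 36.7 and 46.1 CPM, by 0.79 (standard error 0.08, adjusted p = 2.98e-05). Serpina1c, Serpina1a and Serpina1b differed by 0.70, 0.66 and 0.60 on the log2 scale, close to one another.

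The hepatocyte Serpina3 genes followed the same direction with different sizes. Serpina3m was at 101.6, 109.2, 115.7 and 67.0 CPM pericentrally and 161.6, 156.2, 219.1 and 120.1 CPM periportally. Its log2 fold change was 0.74 (standard error 0.07, edgeR adjusted p = 1.83e-05). For Serpina3k and Serpina3n it was 0.36 and 0.34, smaller than for Serpina3m in every library. That order among genes was not tested.

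Clotting inhibitors did not share 1 pattern. Serpind1, heparin cofactor II, was higher periportally by 0.47 and Serpina10, the protein Z-dependent inhibitor of factor Xa, by 0.37. Serpinf2, alpha-2-antiplasmin, was higher periportally by 0.41. Serpinc1, antithrombin and the main inhibitor of thrombin, did not pass (0.08, standard error 0.05, edgeR adjusted p = 0.27), at 508, 611, 515 and 701 CPM pericentrally and 529, 686, 552 and 692.5 CPM periportally. Its zones overlapped, as did those of Serping1, the C1 inhibitor of complement (−0.03, adjusted p = 0.73).

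Serpine2 and Serpina6 were the members higher pericentrally. Serpine2 stood at 89.8, 64.3, 98.2 and 73.6 CPM pericentrally and 51.9, 34.2, 66.6 and 47.2 CPM periportally, a log2 fold change of −0.72 (standard error 0.07, edgeR adjusted p = 1.83e-05). Serpina6, corticosteroid-binding globulin, which carries glucocorticoids in blood, had 8.60, 14.7, 12.5 and 40.7 CPM pericentrally and 2.75, 4.46, 4.57 and 30.4 CPM periportally. Its log2 fold change was −1.05 (standard error 0.27, adjusted p = 0.047), and −1.60 without the second library labelled Brca1-KO (adjusted p = 6.77e-06), where the zones differed least. With any other library left out Serpina6 lost the call, at adjusted p of 0.090 to 0.13.

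Serpinb8 and Serpini1 passed on few counts. Serpinb8 had 1.30, 3.09, 0.726 and 2.89 CPM pericentrally and 2.54, 4.06, 0.936 and 9.23 CPM periportally (log2 fold change 1.04, edgeR adjusted p = 0.012), but 0.57 and an adjusted p of 0.18 without the second library labelled Brca1-KO. Serpini1 passed at 0.59 (adjusted p = 0.038) and lost the call when any 1 library was left out. Serpinf1, pigment epithelium-derived factor, an inhibitor of vessel growth that traps no protease, was higher periportally by 0.40. Serpina11, Serpinb6a, Serpine3 and Serpina5 were also among the 7 tested members that did not pass. With the library block left out of the fit no member passed, while the 16 kept their sign and moved by at most 0.21 on the log2 scale.

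**Figure D3:**
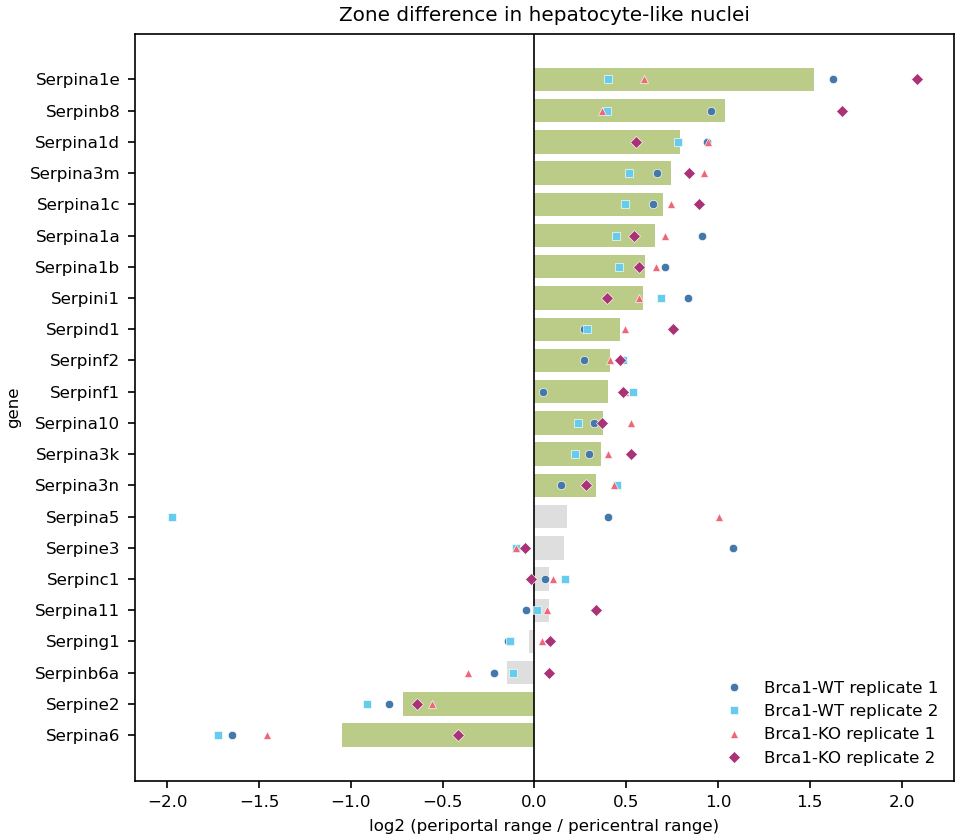
Log2 ratio of the periportal to the pericentral range for 22 of the 23 tested members; bars give the edgeR log2 fold change (green where the adjusted p was below 0.05, grey otherwise) and symbols the 4 libraries, with Serpina5 of the second library labelled Brca1-KO not drawn because it had 0 UMIs. The 14 periportal bars have all 4 symbols right of 0, and Serpine2 and Serpina6 have all 4 left of 0.

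The zone difference itself was compared between genotypes, and 0 of 13353 genes passed (0%; edgeR, 427 at an unadjusted p below 0.05, or 3.2%). At that level stood 4 of 23 members (17.4%). Among them were Serpind1 (log2 difference 0.35, unadjusted p = 0.026), Serpina3m (0.29, 0.029) and Serpina6 (0.96, 0.034). Without the second library labelled Brca1-KO these were 0.21, 0.33 and 0.23, with unadjusted p of 0.19, 0.038 and 0.51. Serping1 was lower periportally in both Brca1-WT libraries (−0.14 and −0.13) and higher in both labelled Brca1-KO (0.04 and 0.09), a difference that did not pass (unadjusted p = 0.085).

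The genes that serpins act on or beside did not all share the members' zone. Of 18 tested inhibitors of other families, 7 were higher periportally and 1 pericentrally, with Mug2 at 1.40, Itih3 at 0.75 and Itih4 at 0.62. Of 19 acute phase genes 9 were higher periportally and 2 pericentrally (Hpx 1.04, Fgg 0.66, Orm3 −2.24). The 16 clotting and fibrinolysis proteases and cofactors divided into 4 and 5 (F10 0.46, F7 0.46, F5 −0.47), with a median of 0.04. Of 10 complement and other proteases 1 was higher periportally and 2 pericentrally (Masp2 0.37, Prss8 −1.22, Ctsl −0.29). Of 22 liver transcription factors 9 were higher periportally and 2 pericentrally (Onecut1 1.29, Rarb 0.73). Of 19 free RNA reference genes tested, 12 were higher periportally and 3 pericentrally. All log2 fold changes named here passed in edgeR's test.

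In the genotype comparison with all 4 libraries no member passed in any class. In hepatocyte-like nuclei 0 of 24 tested members passed in edgeR's quasi-likelihood test, as did 0% of 15118 genes. DESeq2 called 24 genes and no member. At an unadjusted p below 0.05 stood 3 members, Serpina12, Serpinb9 and Serpina1e, or 12.5% against 3.32% of genes. In 8 members (33.3%) the 2 groups did not overlap, against 32% of all genes, 5 of them higher in Brca1-KO (15% of genes) and 3 lower (17%). The median log2 fold change of members was 0.09, against −0.01 for all genes. Levels below are TMM-normalised CPM, counts scaled to a common total, in hepatocyte-like nuclei.

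Of the 5 alpha-1 antitrypsin genes, whose products restrain neutrophil elastase, Serpina1e alone had an unadjusted p below 0.05 in hepatocyte-like nuclei. It stood at 5.42, 4.27, 6.18 and 44.4 CPM. Serpina1e was 8.39 times the mean of the other libraries in the second library labelled Brca1-KO, and the other 3 lay close together. The log2 fold change by genotype was 2.39 (standard error 0.91, edgeR unadjusted p = 0.048, adjusted p = 0.99). It was 0.36 without the second library labelled Brca1-KO and 3.20 without the first, where it passed (adjusted p = 0.0205), as did 0.187% of genes. With 1 library left in a group, the lone library is assumed to vary like the others.

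Serpina1b had 277, 433, 334 and 139 CPM and Serpina1a 209.7, 300.3, 274.4 and 139.7 CPM. Both were lowest in the second library labelled Brca1-KO. Serpina1c had 219, 301, 359 and 176 CPM and Serpina1d 25.1, 40.8, 28.5 and 38.0 CPM. Groups overlapped for these 4 genes. Within the Serpina1 sum, Serpina1e made up 0.736%, 0.395% and 0.617% in 3 libraries and 8.28% in the second library labelled Brca1-KO, and Serpina1d 3.41%, 3.78%, 2.85% and 7.08%. Serpina1b made up 37.6%, 40.1%, 33.3% and 25.8%, lower in both libraries labelled Brca1-KO (exact permutation p = 0.33). At the same p, Serpina1a was also lower in both (28.5%, 27.8%, 27.4% and 26.0%). Serpina1c was higher in both (29.7%, 27.9%, 35.8% and 32.8%), likewise at that p. Shares of a sum depend on one another.

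Serpina3k, with 65207 UMIs in hepatocyte-like nuclei next to Serpinc1 with 76276, and an inhibitor of tissue kallikrein, had 719.8, 628.8, 708.7 and 104.1 CPM. The first 3 libraries lay close together and the second library labelled Brca1-KO was 6.59 times below their mean. By genotype the log2 fold change was −0.73 (standard error 0.85, edgeR adjusted p = 0.99). It was −2.69 without the first library labelled Brca1-KO, where it passed (adjusted p = 0.035), and 0.08 without the second. The fold changes of Serpina3k, Serpina3n and Serpinb6a were chosen for printing after their values were seen.

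The share of nuclei with a UMI told the same of Serpina3k. With each nucleus thinned to 1000 UMIs, 52.2%, 47.6%, 50.6% and 10.4% of hepatocyte-like nuclei held one (exact 95% intervals, of counting error only, 50.3 to 54.1, 46.1 to 49.2, 48.6 to 52.5 and 9.47 to 11.4%). Unthinned shares were 98.3%, 93.3%, 97.7% and 55.0%, and thinning left out 33, 12, 7 and 19 shallower nuclei. Thinned endothelial-like nuclei, where free RNA is the measured background, held one in 40.0%, 26.8%, 28.6% and 11.9%. In the second library labelled Brca1-KO the thinned hepatocyte share was not above the endothelial one. The classes differed in depth before thinning, so free RNA need not make up the same part of each. The thinned shares therefore cannot decide how much of Serpina3k there was free RNA. Thinned hepatocyte shares with a Serpina1e UMI were 0.728%, 0.325%, 0.740% and 5.40%, against 0.208%, 0.174%, 0.104% and 4.02% of endothelial-like nuclei. Unthinned, Serpina1e was found in 5.32%, 3.17%, 6.64% and 26.2% of hepatocyte-like nuclei. Median depths were 5957 to 9518.5 UMIs in hepatocyte-like and 1244 to 1854 UMIs in endothelial-like nuclei.

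The other hepatocyte Serpina3 genes did not move with Serpina3k to the same degree. Serpina3m had 130.5, 132, 163.8 and 92.5 CPM. Serpina3n, an acute phase inhibitor that can block granzyme B, had 23.9, 26.9, 29.7 and 31.3 CPM, with both libraries labelled Brca1-KO above both others (log2 fold change 0.26, edgeR adjusted p = 0.99). In the Serpina3 sum, Serpina3k made up 82.3%, 79.8% and 78.5% in 3 libraries and 45.7% in the second library labelled Brca1-KO, where Serpina3m made up 40.6% and Serpina3n 13.7%.

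**Figure D4:**
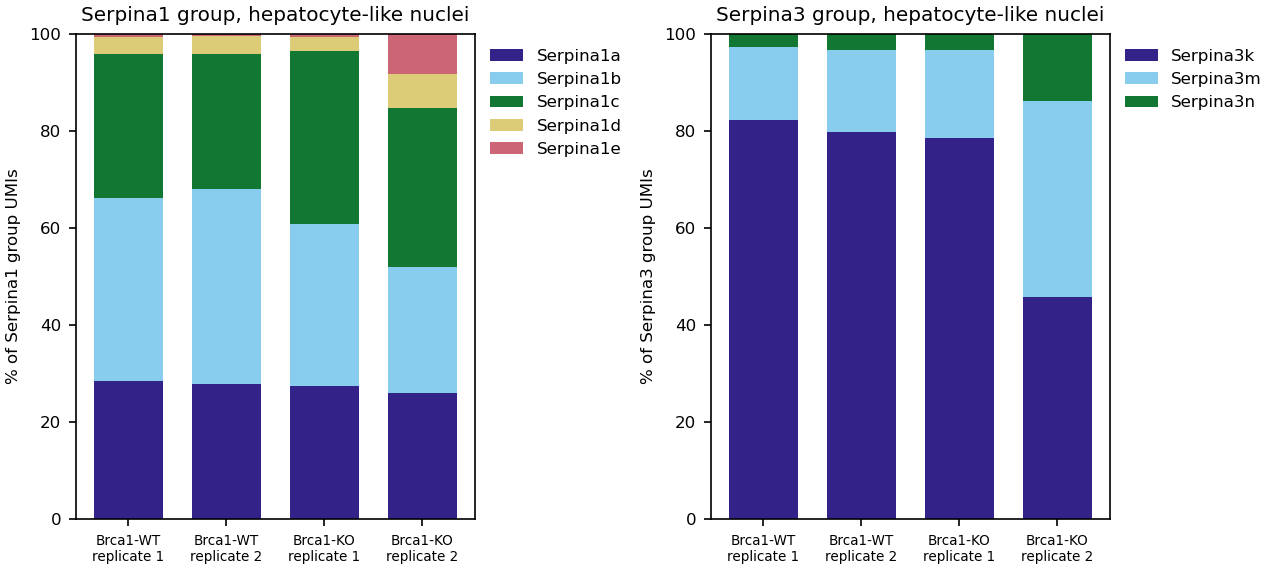
Share (%) of each gene in the summed UMIs of the Serpina1 group (left) and the Serpina3 group (right) in hepatocyte-like nuclei, 1 bar for each library; Serpina3f, Serpina3g and Serpina3i, together under 0.1%, are not drawn. The bar of the second library labelled Brca1-KO differs from the other 3 in both panels, with Serpina1e at 8.28% and Serpina3k at 45.7%.

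Among clotting and fibrinolysis inhibitors, Serpinc1 had 518, 652, 519.7 and 700.1 CPM, Serpinf2 122.8, 162.3, 158.0 and 131.3 CPM, and the groups overlapped for both. Serpina10 had 50.9, 37.1, 55.4 and 124.8 CPM. Both libraries labelled Brca1-KO lay above the others (log2 fold change 1.03, standard error 0.43, edgeR adjusted p = 0.99), by 0.34 without the second. Serpind1 had 51.3, 61.1, 59.6 and 86.0 CPM, highest in the second library labelled Brca1-KO, with overlapping groups. Serpine2 had 72.5, 51.4, 86.4 and 60.7 CPM, and the groups overlapped. Serpina5, the protein C inhibitor, held 72, 6, 6 and 0 UMIs in hepatocyte-like nuclei and was not tested. Its UMIs in Brca1-WT replicate 1 were not in the hepatocyte-like cluster with Gpc3 among its leading genes, which held 0 of them.

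Hormone carriers were highest in the second library labelled Brca1-KO. Serpina6 had 6.15, 10.0, 8.25 and 39.4 CPM. The other library labelled Brca1-KO lay between both Brca1-WT libraries, and the log2 fold change of 1.56 (standard error 0.76, edgeR adjusted p = 0.99) became 0.04 without the second. Serpina7, thyroxine-binding globulin, held 4, 7, 3 and 141 UMIs, so 91.0% came from that library, and it was not tested in hepatocyte-like nuclei.

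Serping1 had 232, 306, 274 and 315 CPM and Serpinf1 34.9, 48.0, 38.1 and 34.8 CPM, with overlapping groups. Serpina11, a secreted member whose target is not settled, had 50.9, 32.9, 31.0 and 13.9 CPM. For Serpina11 the groups did not overlap, with Brca1-WT higher (log2 fold change −0.90, standard error 0.44, edgeR adjusted p = 0.99), by −0.42 without the second library labelled Brca1-KO. Serpina12, vaspin, a serpin tied to insulin sensitivity, had 0.134, 0.0333, 0.406 and 1.27 CPM and the largest fitted difference, 3.29 (standard error 0.91, unadjusted p = 0.015, adjusted p = 0.99). It rests on 4, 1, 12 and 47 UMIs and was 2.23 without the second library labelled Brca1-KO.

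Of the intracellular members, Serpinb6a had 40.7, 46.7, 38.4 and 34.0 CPM in hepatocyte-like nuclei, with both libraries labelled Brca1-KO below both others (log2 fold change −0.27, edgeR adjusted p = 0.99). Serpinb9 had 0.836, 0.833, 0.406 and 0.244 CPM (−1.37, standard error 0.45, unadjusted p = 0.029, adjusted p = 0.99), on 25, 25, 12 and 9 UMIs. In endothelial-like nuclei Serpinb9 was also lower in both libraries labelled Brca1-KO. Endothelial markers summed in hepatocyte-like nuclei to 69.6, 52.9, 38.0 and 24.7 CPM, likewise lower in both. Their part in the hepatocyte value was not tested. Of members at a few CPM, Serpini1, which is secreted, had 1.71, 3.0, 2.94 and 2.95 CPM, Serpine3 1.20, 1.23, 1.55 and 2.03 CPM and Serpinb8 1.74, 3.53, 0.879 and 5.63 CPM. Of these, Serpine3, whose target is not settled, alone separated the groups (log2 fold change 0.56, adjusted p = 0.99).

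Counted over the 24 members, 10 lay over 2-fold from the mean of the other libraries in the second library labelled Brca1-KO, 6 above and 4 below. The same count was 3, 3 and 4 in the other libraries. Of the 11165 genes with at least 50 UMIs in every library, 6.51% did so in the second library labelled Brca1-KO, and 2.88%, 1.33% and 2.76% in the others. For the 19 members under the same UMI limit the counts were 6 there and 3, 2 and 2. The library differs from the rest in its clusters and its members' levels alike, and whether this follows genotype, animal or handling cannot be told apart with 1 library.

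**Figure D5:**
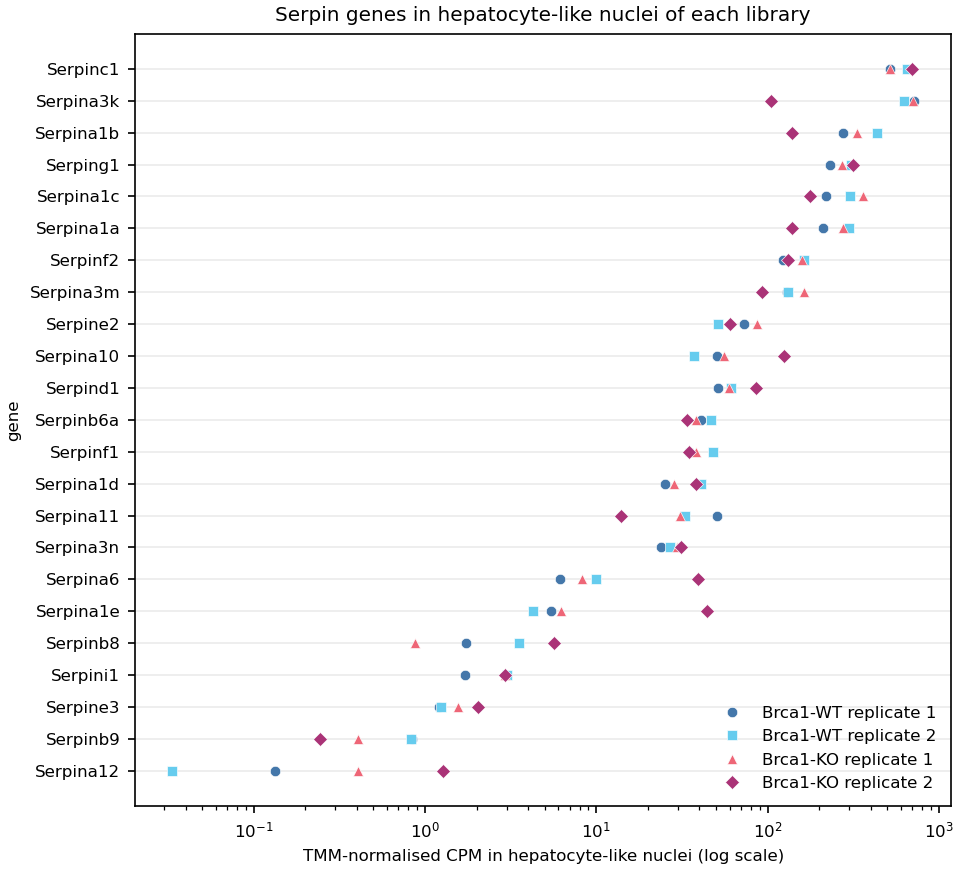
TMM-normalised CPM (log scale) of 23 of the 24 tested members in hepatocyte-like nuclei, 1 symbol for each library. The diamond of the second library labelled Brca1-KO stands left of the others for Serpina3k at 104.1 CPM and right of them for Serpina1e at 44.4 CPM and Serpina6 at 39.4 CPM, while the symbols of Serpinc1 and Serpinf2 lie close together.

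Outside hepatocyte-like nuclei 0 members passed as well (edgeR), as did 0% of genes in each tested class except 0.0594% in monocyte or dendritic-like nuclei, and DESeq2 called 0 genes in these 6 classes. At an unadjusted p below 0.05 stood 2 members in endothelial-like nuclei (2.26% of genes), 2 in B cell-like (7.93%), 1 in T or NK cell-like (1.92%) and 1 in monocyte or dendritic-like nuclei (4.25%). None did so in macrophage-like (4.7%) or stellate or mesenchymal-like nuclei (3.74%). Without the first library labelled Brca1-KO, 4 members passed in endothelial-like (3.28% of all genes in that fit), 3 in macrophage-like (5.71%), 3 in stellate or mesenchymal-like (1.56%), 1 in B cell-like (3.27%) and 1 in monocyte or dendritic-like nuclei (1.2%). In endothelial-like nuclei 7 of 19 members (36.8%) did not overlap between groups, against 31.4% of all genes. Those of smallest unadjusted p were Serpine2 (log2 fold change 1.32, unadjusted p = 0.040), Serpina10 (1.87, 0.041) and Serpinb9 (−1.27, 0.051). Without the second library labelled Brca1-KO they were 0.64, 0.65 and −1.20. Serpine2 and Serpina10 exceeded the free RNA range in no library, and Serpinb9 in all 4. In B cell-like nuclei 7 of 11 (63.6%) did not overlap, against 38.1% of genes. Serpinc1 was there at 0.83 (unadjusted p = 0.0097, adjusted p = 0.57), within free RNA. Serpinb1a was lower in B cell-like nuclei of both libraries labelled Brca1-KO (−1.02, standard error 0.50, unadjusted p = 0.066).

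In stellate or mesenchymal-like nuclei 2 of 16 (12.5%) did not overlap, against 32.1%, and Serpinh1 was higher in both libraries labelled Brca1-KO (1.09, standard error 0.53, edgeR unadjusted p = 0.078, adjusted p = 0.99). In T or NK cell-like nuclei 4 of 9 (44.4%) did not overlap, against 26.9%, led by Serpina1b (−0.92, unadjusted p = 0.033). In macrophage-like nuclei 2 of 12 (16.7%) did not, against 33.2%, led by Serpina1b (−0.57, unadjusted p = 0.058, and −0.32 without the second library labelled Brca1-KO). In monocyte or dendritic-like nuclei it was 1 of 6 (16.7%), against 31.8%: Serpina1b (−1.46, unadjusted p = 0.0038). Serpina1b was within the free RNA range of all these classes, so these values are not read as expression by the class.

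In the sum of all kept nuclei 0 of 30 tested members passed (edgeR; 0% of 17150 genes; 20 genes and no member by DESeq2). The groups of 15 members (50%) did not overlap, against 39.3% of all genes, and 5 members had an unadjusted p below 0.05, or 16.7% against 4.58%. These were Serpinb9 (−1.25), Serpina12 (3.09), Serpina1e (2.66), Serpina10 (1.23) and Serpinb6b (−1.05). Without the second library labelled Brca1-KO they were −1.16, 1.89, 0.45, 0.46 and −0.85, and none passed. Without the first library labelled Brca1-KO, Serpina10 (1.72), Serpina6 (2.45), Serpina1e (3.48), Serpina3k (−2.46) and Serpina7 (4.65) passed, with 1.25% of all genes in that fit. Serpinb6b was at 0.869, 0.751, 0.448 and 0.334 CPM. A sum over all nuclei moves with the share of each class, and fewer cells of a type cannot be told apart from less RNA per cell: endothelial-like nuclei made up 26.1%, 21.8%, 24.2% and 10.6% of the nuclei. Serpina3g was higher in both libraries labelled Brca1-KO, at 0.369, 0.362, 0.568 and 1.08 CPM (1.17, unadjusted p = 0.057, and 0.63 without the second), and endothelial-like nuclei were fewest in the last.

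In 6 lists of other genes, 0 genes passed by genotype in hepatocyte-like nuclei (edgeR; 3 at an unadjusted p below 0.05; 0% of all genes). In edgeR's test these were C1qa (−1.29, unadjusted p = 0.023, adjusted p = 0.99), Orm1 (−0.59, unadjusted p = 0.026) and Tfpi (−1.30, unadjusted p = 0.039). C1qa, also used as a macrophage marker, stood at only 0.936, 1.20, 0.406 and 0.460 CPM there. Tfpi stood at 0.802, 0.867, 0.439 and 0.244 CPM. The part of free RNA from other cells in these low levels was not tested. Hnf4a, a master regulator of hepatocyte genes, was at 459, 436, 595 and 725 CPM, and Foxa2 and Foxa3 were also higher in both libraries labelled Brca1-KO, without passing. The median of 22 transcription factors was 0.20, of 18 other inhibitors −0.03 and of 17 clotting genes 0.01. It was −0.19 for 11 complement and other proteases, −0.09 for 20 acute phase genes and −0.14 for the 20 free RNA reference genes, against −0.01 for all genes.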

How the data were processed

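Single-nucleus libraries of 4 mouse livers were deposited as gene by barcode tables whose values are whole UMI counts, not normalized, which the authors made, per the file headers, by Cell Ranger 6.0.0. The submitters' processing notes name GRCh38, a human build, whereas the gene identifiers are mouse; the sources used here give no other build, intron setting or handling of shared reads.

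Barcodes with at least 500 genes and at most 5% mitochondrial counts were kept, and doublets called by Scrublet in scanpy 1.11.5 (2.96% to 11.5% by library) were removed, leaving 23857 nuclei. Nuclei were clustered (2000 variable genes, 30 components, 15 neighbours, Leiden resolution 1; python-igraph 0.11.9) and clusters were named from marker lists. The scoring rule for names and the joining of T with NK cells were set after the data were seen. Members and gene lists were chosen with earlier results of these data known. UMI counts were summed by library and class, and tested with edgeR 4.0.16 (R 4.3.3; filterByExpr, TMM, quasi-likelihood, Benjamini-Hochberg over all genes tested). Zone comparisons carried library as a block. CPM for classes are plain and those for genotype and zone TMM-normalised; 3′ counts were not corrected for length. Standard errors are the log2 fold change over the root of F.

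Levels were printed for members with at least 50 UMIs in hepatocyte-like nuclei of every library, or at least 20 in another class where they exceeded the free RNA reference in at least 3 libraries; other members with values are named for their role. Fold changes with errors were printed for up to 8 members of smallest p in each class, and for zone up to 6 in each direction. Of the genes counted, 1 member and 1 gene of the lists below enter all counts and medians, but their values are not reported here. The lists were free RNA reference, clotting, complement and other proteases, other inhibitors, transcription factors and acute phase genes. Alternatives were DESeq2 1.42.0, other size factors, no filter, a replicate block, single libraries left out, thinning, doublets kept, another resolution, all barcodes, and other zone scores and splits. The fits were also run on simulated counts with the same spread for every gene and no library set apart. That setting differs from these data, so it does not show how the fits behave here. Same-numbered libraries did not deviate together from their group means (correlation −0.079 over 15149 genes). With so few libraries in a group both pairs must give this same value, so it counts once. Promoters are from RefSeq (GRCm38.p6) and transcripts from GENCODE vM21.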

Additional observations from a re-analysis of the deposited data

How the results depend on the processing

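Of the values that answer a comparison, 164 kept their side or size under an alternative and 48 moved. DESeq2 called 24 genes in hepatocyte-like nuclei, 20 in all nuclei and 0 in monocyte or dendritic-like nuclei, where edgeR called 2. Without a low count filter the genotype fits called 5 genes (B cell), 14 (T or NK cell), 33 (endothelial), 2 (hepatocyte), 73 (macrophage), 6 (monocyte or dendritic), 19 (stellate or mesenchymal) and 2 (all nuclei), with 1 member each in the endothelial, macrophage and stellate or mesenchymal classes. In monocyte or dendritic-like nuclei, keeping doublets gave 0, thinning 0 and resolution 0.5 gave 1 gene. With 1 library left out, genes called ranged from 0 to 30 (hepatocyte), 0 to 174 (B cell), 0 to 392 (endothelial), 0 to 521 (macrophage), 1 to 50 (monocyte or dendritic), 0 to 150 (stellate or mesenchymal), 1 to 22 (T or NK cell), 0 to 226 (all nuclei) and 0 to 39 (zone by genotype). Members called ranged from 0 to 2, 0 to 1, 0 to 4, 0 to 3, 0 to 1, 0 to 3, 0 to 0, 0 to 5 and 0 to 1 in the same order, and every highest member count came without Brca1-KO replicate 1, apart from the T or NK cell class. Zone calls of 3531 genes became 1514 with thinning and 393 genes with 0 members without the library block. Zone calls ranged from 2445 to 3220 genes with 1 library left out. With doublets kept, 86.8% of member UMIs lay in hepatocyte-like nuclei. The cause was not tested. Fits with the replicate number as a block called 0 genes in hepatocyte-like nuclei and 2 in monocyte or dendritic-like nuclei, as without it. They changed no call. The pairing correlation of −0.079, by construction the same for both pairs, gives no sign that the numbers pair libraries.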

Other observations

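A hepatocyte-like cluster of 174 nuclei had Gpc3, a glypican of fetal liver and liver tumors, among its leading genes, and 151 of its nuclei came from Brca1-WT replicate 1. There Serpina1a stood at 850 CPM in that library against 186 CPM in its other hepatocyte-like nuclei, a log2 ratio of 2.19. Serpina1e, Serpina1d and Serpina1b were likewise higher, by 2.42, 2.14 and 1.61. Serpine2 was lower, at 8.04 against 77.0 CPM (−3.26). In Brca1-WT replicate 2, which held 22 of the nuclei, the ratios of Serpina1a, Serpina1b, Serpina1d and Serpina1e were 2.43, 1.85, 2.77 and 2.73. These nuclei were grouped by their own expression, so the values are a description without a test.

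Serpinb9 was found at 35.4 CPM over an unnamed cluster of 144 nuclei led by Vwf, Mecom and Edn1, on 12 UMIs. Serpina3g stood there at 23.6 CPM on 8 UMIs and Serpinb6b at 20.6 CPM on 7 UMIs. In another unnamed cluster, of 53 nuclei, Serpinb6b was at 39.9 CPM on 5 UMIs.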
